A study of Mus musculus with 16 samples.

Results

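Aminoacyl-tRNA synthetases are the enzymes that join each amino acid to its transfer RNA (tRNA). The 36 genes described here are 20 that encode cytosolic synthetases and 16 that encode mitochondrial ones, out of 23420 genes in the count files. They were chosen by name: a symbol ending in 2 (Aars2, Tars2) marks the mitochondrial enzyme. Their mRNA was counted in 8 RNA-seq libraries of mouse J1 embryonic stem (ES) cells, 4 groups of 2 libraries each. J1 is a line of the strain 129S4/SvJae, and it was at passage 36 here. Every group, the control included, carried the transgene Tn(dCas9-VPR/RLTR10B2-gRNA-DsRed). It combines a catalytically dead Cas9 fused to the activator VPR with guide RNAs named for RLTR10B2, a family of endogenous retroviral long terminal repeats, and the red fluorescent protein DsRed. The cells grew without feeders in medium with serum, 2 kinase inhibitors and the cytokine LIF. The control group received neither doxycycline (Dox) nor A-MYB, the Dox group received 1 µg/ml doxycycline, the A-MYB group expressed A-MYB, and the last group had both. A-MYB, the product of Mybl1, is a transcription factor of male germ cells that are in meiosis. The samples are labelled day 3. The labels do not say which construct doxycycline switched on, how A-MYB was delivered, or whether the line is 1 clone. RNA was taken from wells of a culture plate. Nothing says that the 2 libraries of a group came from separate cultures, so p-values measure only the spread between these libraries, which may be technical.

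A synthetase first activates its amino acid with ATP and then transfers it to the matching tRNA, and the loaded tRNA is carried to the ribosome by an elongation factor. The cytosolic enzymes serve the ribosomes that translate nuclear mRNAs. The mitochondrial enzymes, also encoded in the nucleus, are imported into mitochondria and serve the few proteins that the mitochondrial genome encodes. Several cytosolic enzymes sit together in a multisynthetase complex held by scaffold proteins. Many cytosolic synthetase genes are known targets of the transcription factor ATF4, which acts in the integrated stress response, the program that cells start when amino acids run short or protein folding fails.

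The libraries held between 26995317 and 33771487 reads counted to genes. All 36 genes were among the 14664 that had enough reads to be tested. Mybl1 itself was at 8.38 and 6.92 CPM (reads per gene relative to the library size, with edgeR's TMM factors) in control, 10.99 and 10.2 CPM with Dox, 22.0 and 17.8 CPM with A-MYB and 19.9 and 16.6 CPM with both, so both groups labelled A-MYB were above both others. The Dox + A-MYB libraries stood apart: the first principal component, 64.1% of the variance, had scores of 80.71 and 80.86 for them and of -48.42 to -9.73 for the remaining 6. The summed level of 10 ES cell markers, none of them at 0, was 4635 and 5109 CPM in those libraries and 6808 to 7634 CPM in the rest. The 8 endoderm markers summed to 16.7 and 19.5 CPM there and to 6.48 to 9.59 CPM elsewhere. The 8 fibroblast markers stayed between 2.85 and 5.92 CPM in all 8 libraries. Neuroectoderm markers, 8 genes with none at 0, summed to 371 and 370 CPM in control, 266 and 266 CPM with Dox, 297 and 319 CPM with A-MYB and 203 and 205 CPM with both; of the 6 that were tested 3 rose and 2 fell after Dox alone. The sum of 8 trophoblast markers was 103 and 107 CPM in control, 96.9 and 95.1 CPM with Dox, 87.8 and 88.8 CPM with A-MYB and 70.6 and 80.6 CPM with both. Both of these sums were below control in every treated library. Of the neuroectoderm genes, Tubb3 averaged 254 CPM in control, 121 CPM with Dox, 172 CPM with A-MYB and 51.9 CPM with both. Nes averaged 101, 126, 118 and 126 CPM in the same order. The median log2 change of the 6 tested neuroectoderm genes was 0.28 after Dox alone and 0.14 after A-MYB alone. It was 0.42 after Dox with A-MYB and 0.22 after A-MYB with Dox. The part of these marker changes in the results below was not tested. In bulk RNA, fewer cells of a type and less RNA per cell cannot be told apart.

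Relative to TMM-scaled library sizes, cytosolic synthetase mRNA was lower in every treated group, and mitochondrial synthetase mRNA did not follow it. Summed over the 20 cytosolic genes, the level was 6814 and 6827 CPM in the control libraries, 6023 and 6061 CPM with Dox, 6080 and 6198 CPM with A-MYB, and 5207 and 5291 CPM with both. The treated libraries were all below both control libraries, and the doubly treated ones were below all others. The mean was 88.6% of control with Dox, 90.0% with A-MYB and 77.0% with both. The TMM factors were 1.12 and 1.11 for the Dox + A-MYB libraries and 0.944 to 0.979 for the rest. The 77.0%, and the place of the doubly treated libraries below all others, therefore depend on this scaling. Summed over 15 mitochondrial genes, with Lars2 left out, the level was 751 and 739 CPM in control, 777 and 768 CPM with Dox, 731 and 746 CPM with A-MYB, and 794 and 794 CPM with both. Here Dox and Dox + A-MYB were above control, while A-MYB overlapped it. The ratio of the cytosolic to the mitochondrial sum does not depend on how libraries are scaled. It was 9.07 and 9.23 in control, 7.75 and 7.89 with Dox, 8.32 and 8.31 with A-MYB and 6.56 and 6.66 with both, so no 2 groups overlapped. The neuroectoderm marker sum had the same order of groups. Among its genes Tubb3 had that order too, while Nes was above control in each treated group. The part of these markers in the ratio was not tested. These sums are descriptions, weighted by the most abundant transcripts, and were not tested.

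**Figure D1:**
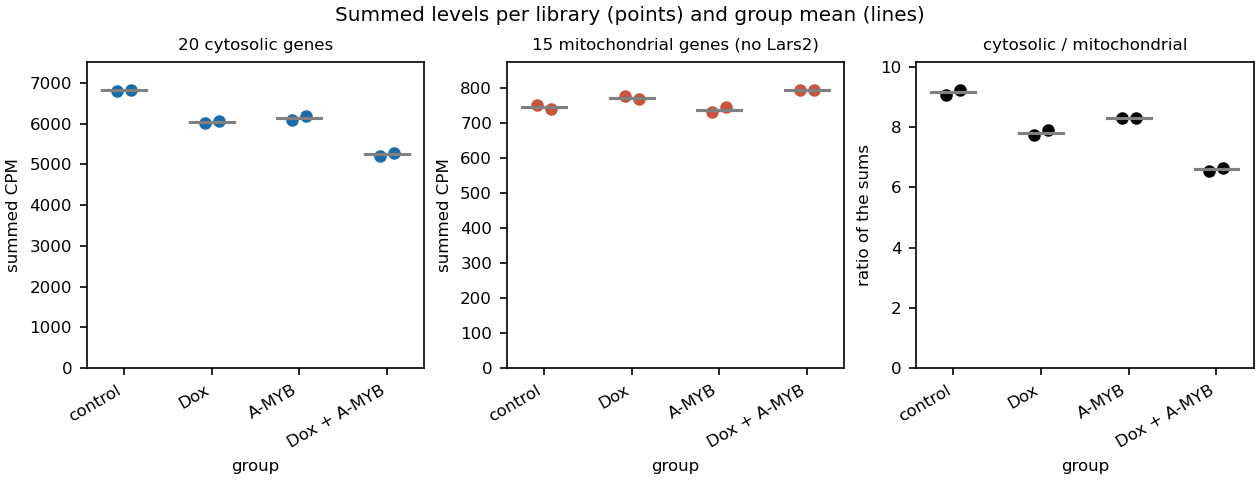
Summed CPM of the 20 cytosolic genes, of the 15 mitochondrial genes other than Lars2, and the ratio of both sums, by group. Points are libraries and grey lines are group means; the ratio is highest in control (9.07 and 9.23) and lowest with both treatments (6.56 and 6.66).

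Lars2, the mitochondrial leucyl enzyme, was left out because its counts exceeded those of all other mitochondrial members together in 7 of the 8 libraries and varied between replicates. It was at 1664 and 1499.9 CPM in the control libraries, 517 and 1382 CPM with Dox, 1372 and 1843 CPM with A-MYB and 1132 and 1356 CPM with both. The Dox libraries thus differed from each other by more than any group means did. In each of the 4 groups the library with more Rn45s, the precursor of the cytosolic ribosomal RNAs, also had more Lars2: Rn45s was at 10530.3 and 5465 CPM in control, 3531 and 4913 CPM with Dox, 3954 and 7071 CPM with A-MYB and 3157 and 6786 CPM with both. The part of ribosomal RNA in the Lars2 counts was not tested. The log2 changes of Lars2 had standard errors near 0.51, and in edgeR's quasi-likelihood test none passed (adjusted p from 0.362 to 0.982 over the 4 treatment contrasts).

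Dox alone was followed by lower mRNA of most cytosolic synthetases. In edgeR's test at an adjusted p under 0.05, 12 of the 20 cytosolic genes fell, 8 did not pass and 0 rose; 14.3% of all tested genes fell and 17.9% rose. All 20 lie in the top expression quintile, a ranking of all tested genes by mean CPM, where 23% fell and 26.6% rose. Their median log2 change was -0.20, against 0.029 over all tested genes and 0.016 over the top quintile. Leaving out 1 library moved the number that fell to between 8 and 13. The genes that fell were Aars, Cars, Eprs, Gars, Lars, Mars, Nars, Sars, Tars, Vars, Wars and Yars. Wars lost its call without either control or either Dox library (adjusted p from 0.0841 to 0.129), as did Eprs without control replicate 2 or either Dox library (0.0555 to 0.145). Cars and Tars lost theirs without Dox replicate 1 (0.0889 and 0.0844). With total-count scaling Eprs and Wars did not pass (0.0731 and 0.11). Leaving out either Dox + A-MYB library made 1 cytosolic gene, Farsb, rise (log2 change 0.16 with all libraries, adjusted p = 0.0516). The library-by-library map of all 36 genes shows the cytosolic block turning below control in the treated libraries.

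**Figure D2:**
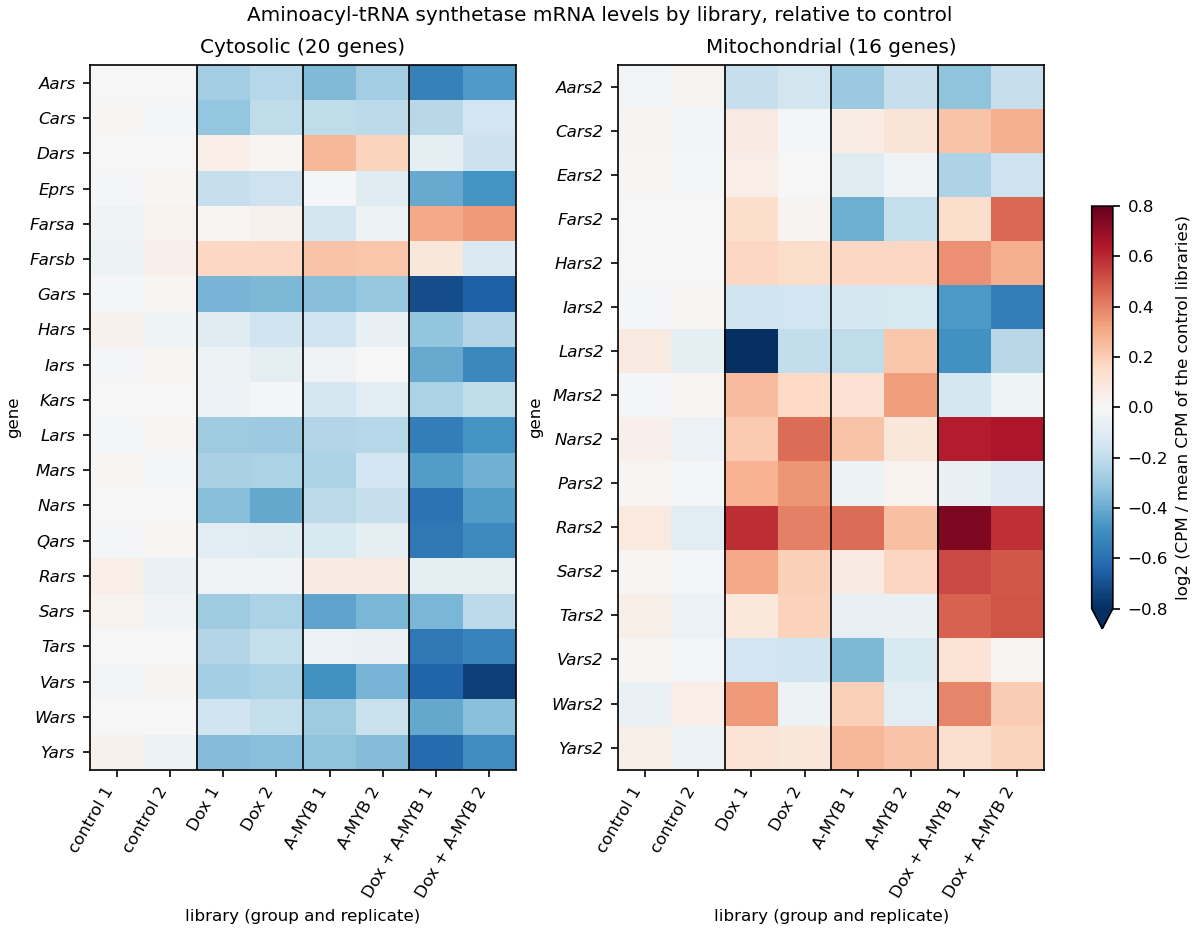
Level of each of the 36 genes in each library, as the log2 ratio of its CPM to the mean CPM of the 2 control libraries (colour; blue is lower, red is higher, values under -0.8 share the darkest blue). Rows are genes, columns are the 8 libraries with group borders as black lines; most cytosolic rows are blue in the treated libraries, Farsa is red in both Dox + A-MYB libraries, and Lars2 differs between replicates.

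The largest decreases after Dox alone were those of Nars and Gars. Nars, which charges asparagine tRNA, was at 402 and 403 CPM in the control libraries, 318 and 304 CPM with Dox, 347 and 355 CPM with A-MYB and 267 and 295 CPM with both. Both Dox libraries were below both control and both A-MYB libraries, and the log2 change was -0.37 (SE 0.058, edgeR adjusted p = 2.4e-05). Gars makes the glycyl enzyme of the cytosol and, from another start site, of mitochondria. It was at 490.5 and 498 CPM in the control libraries, 382 and 386 CPM with Dox, 390.3 and 401 CPM with A-MYB and 302 and 315 CPM with both; the single treatments lay close together below control, and both together lay lowest. Its log2 change with Dox was -0.36 (SE 0.054, edgeR adjusted p = 1.35e-05). Kars, the other gene known to serve both compartments, had a log2 change of -0.03 and did not pass (edgeR adjusted p = 0.713).

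Of the 16 mitochondrial genes, 4 rose after Dox alone (Nars2, Pars2, Rars2 and Sars2), 1 fell (Iars2) and 11 did not pass. Their median log2 change was 0.12. Over all tested genes 17.9% rose and 14.3% fell, and in the quintile just below the top 24.4% rose and 14% fell. Rars2, which charges mitochondrial arginine tRNA, was at 47.6 and 42.6 CPM in the control libraries, 67.8 and 59.7 CPM with Dox, 61.4 and 53.4 CPM with A-MYB and 75.6 and 67.7 CPM with both. All treated libraries were above both control libraries, and the change with Dox was 0.50 (SE 0.09, edgeR adjusted p = 0.000167). Nars2, the mitochondrial asparaginyl enzyme, was at 16.8 and 15.9 CPM in the control libraries, 18.9 and 22.2 CPM with Dox, 19.1 and 17.4 CPM with A-MYB and 25.2 and 25.6 CPM with both, again with control lowest, and changed by 0.33 (SE 0.11, edgeR adjusted p = 0.0237). Its call was lost without either control library or Dox replicate 2 (adjusted p from 0.0909 to 0.365) and with DESeq2 (0.0673). Iars2, the mitochondrial isoleucyl enzyme, was at 179.6 and 184 CPM in the control libraries, 163 and 163 CPM with Dox, 165 and 166 CPM with A-MYB and 132 and 124 CPM with both; all treated libraries were below control and the doubly treated ones lowest. It changed by -0.16 (SE 0.059, edgeR adjusted p = 0.0455), a call that no fit without a control or Dox library kept (0.078 to 0.218). Leaving out control replicate 1 or 2 left 1 mitochondrial gene that rose, leaving out Dox replicate 1 or 2 left 2, and the number that fell lay between 0 and 2: 0 without control replicate 1 or 2 or Dox replicate 1, and 2 without either Dox + A-MYB library.

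In cells that expressed A-MYB, Dox was again followed by lower cytosolic synthetase mRNA, but so were most abundant mRNAs. Here 15 cytosolic genes fell, 1 rose and 4 did not pass; 30.4% of all tested genes fell and 28.5% rose, and in the top expression quintile 58.2% fell and 14% rose. The cytosolic median of -0.23 was close to that of the top quintile, -0.22. The median over all tested genes was 0.010. Scaling by total counts moved that median by 0.21 on the log2 scale. The split then became 6 that fell and 3 that rose, and among the genes called with TMM scaling Aars, Hars, Mars and Rars turned in sign, none of these 4 past the test. How many of all tested genes fell after Dox in both settings is not given here, so the next count has no background. The 9 cytosolic genes that fell after Dox in both settings, which share no library, were Aars, Eprs, Gars, Lars, Mars, Nars, Tars, Vars and Yars. They are 9 of the 12 without A-MYB and 9 of the 15 with it. Of these Aars lost its call with A-MYB when A-MYB replicate 2 was left out (adjusted p = 0.0724). With total-count scaling 2 of the 9 (Gars and Tars) kept both calls: Aars, Lars, Mars, Nars, Vars and Yars did not pass with A-MYB (adjusted p from 0.107 to 0.999), and Eprs did not pass without it.

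Tars and Iars fell furthest and Farsa rose. Tars, the threonyl enzyme, was at 331 and 333 CPM in the control libraries, 282 and 291 CPM with Dox, 321 and 320.0 CPM with A-MYB and 224 and 229 CPM with both. The doubly treated libraries were below all others by a wide margin, and the Dox effect with A-MYB was -0.50 (SE 0.054, edgeR adjusted p = 1.97e-08). Iars, the isoleucyl enzyme of the multisynthetase complex, was at 381 and 389 CPM in the control libraries, 375 and 367 CPM with Dox, 379 and 386 CPM with A-MYB and 292 and 269 CPM with both, with the other 3 groups close together; it changed by -0.45 (SE 0.056, edgeR adjusted p = 2.39e-07). Farsa encodes the alpha subunit of phenylalanyl-tRNA synthetase and was at 243 and 252 CPM in the control libraries, 249.6 and 253 CPM with Dox, 223 and 240.0 CPM with A-MYB and 305 and 313 CPM with both. It was highest in the doubly treated libraries and changed by 0.42 (SE 0.057, edgeR adjusted p = 8.92e-07).

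More mitochondrial genes rose than fell in this setting: 6 rose (Fars2, Nars2, Rars2, Sars2, Tars2 and Vars2), 2 fell (Iars2 and Mars2) and 8 did not pass, with a median of 0.17. Of the 16 genes, 3 lie in the top expression quintile and 6, 6 and 1 in the next 3 below it; the medians of all genes in those quintiles were -0.22, -0.090, -0.014 and 0.20. In the quintile just below the top 40.4% of genes fell and 25.1% rose, and over all tested genes 30.4% fell and 28.5% rose. With total-count scaling 10 mitochondrial genes rose and 1 fell. Nars2, Rars2 and Sars2 rose after Dox in both settings, 3 of the 4 without A-MYB and 3 of the 6 with it. Iars2 fell in both. The share of all tested genes called in both settings is not given here. Sars2 changed by 0.25 after Dox alone with all libraries. Without control replicate 1, control replicate 2 or Dox replicate 1 its change was 0.24, 0.21 and 0.19, and that call was lost. Tars2, the mitochondrial threonyl enzyme, was at 96.7 and 90.7 CPM in the control libraries, 99.3 and 106 CPM with Dox, 89.7 and 89.8 CPM with A-MYB and 130.2 and 133 CPM with both. Both doubly treated libraries were above all others, and the change was 0.55 (SE 0.066, edgeR adjusted p = 9.57e-08). Fars2, a single-chain phenylalanyl enzyme, was at 24.3 and 24.3 CPM in the control libraries, 26.8 and 24.7 CPM with Dox, 18.6 and 21.3 CPM with A-MYB and 26.8 and 33.4 CPM with both; the A-MYB libraries were lowest, and the last pair was spread wider than any other. It changed by 0.59 (SE 0.11, edgeR adjusted p = 4.74e-05). Mars2, the mitochondrial methionyl enzyme, was at 24.3 and 24.9 CPM in the control libraries, 29.4 and 27.5 CPM with Dox, 26.7 and 31.0 CPM with A-MYB and 22.3 and 24.0 CPM with both, with the singly treated libraries above all others, and changed by -0.32 (SE 0.10, edgeR adjusted p = 0.00758). That call was lost without A-MYB replicate 2 (-0.21, adjusted p = 0.149), which left 1 mitochondrial gene that fell; Rars2 lost its call without the same library (0.0831) and Vars2 without A-MYB replicate 1 (0.133). Leaving out Dox + A-MYB replicate 1 made 2 cytosolic genes rise instead of 1.

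A-MYB alone was followed by a decrease of 10 cytosolic genes (Aars, Cars, Gars, Lars, Mars, Nars, Sars, Vars, Wars and Yars) and an increase of Dars and Farsb, with 8 not passed. Among all tested genes 15.2% fell and 19.5% rose, and in the top quintile 26.7% fell and 28.3% rose. The cytosolic median was -0.16, against -0.0047 over all tested genes and -0.0029 over the top quintile. Vars, the valyl enzyme, was at 392 and 404 CPM in the control libraries, 330.3 and 334 CPM with Dox, 284 and 308 CPM with A-MYB and 256 and 237 CPM with both; every treated library was below control, and A-MYB gave -0.43 (SE 0.059, edgeR adjusted p = 4.99e-06). Sars, which loads serine and also the tRNA that carries selenocysteine, was at 238 and 229 CPM in the control libraries, 191 and 196 CPM with Dox, 174 and 181 CPM with A-MYB and 181 and 201 CPM with both. Its control libraries were highest and those with A-MYB alone lowest, where they overlapped doubly treated replicate 1, and it changed by -0.39 (SE 0.062, edgeR adjusted p = 2.64e-05). Dars, the aspartyl enzyme, was at 282 and 279.7 CPM in the control libraries, 291 and 284 CPM with Dox, 338 and 318 CPM with A-MYB and 267 and 249 CPM with both, highest with A-MYB alone, and changed by 0.22 (SE 0.057, edgeR adjusted p = 0.00375). Farsb, the beta subunit of phenylalanyl-tRNA synthetase, was at 181 and 191 CPM in the control libraries, 209 and 208 CPM with Dox, 218 and 217 CPM with A-MYB and 198 and 172 CPM with both; the singly treated libraries were highest and the doubly treated ones overlapped control. It changed by 0.22 (SE 0.064, edgeR adjusted p = 0.00825). The calls of Dars and Farsb rest on few libraries. Without control replicate 1 or A-MYB replicate 1 neither passed (adjusted p from 0.0606 to 0.19), without control replicate 2 Dars did not (0.0692), and without A-MYB replicate 2 Farsb did not (0.0575). Wars and Mars lost their calls without A-MYB replicate 1 (0.0556 and 0.0596).

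Of the mitochondrial genes, 2 rose with A-MYB alone (Rars2 and Yars2), 3 fell (Aars2, Fars2 and Vars2) and 11 did not pass. Their median was 0.041. Over all tested genes 19.5% rose and 15.2% fell. Rars2, whose levels stand above, changed by 0.35 (SE 0.09, edgeR adjusted p = 0.00426). Yars2, the mitochondrial tyrosyl enzyme, was at 57.6 and 54.1 CPM in the control libraries, 60.3 and 59.4 CPM with Dox, 67.0 and 65.5 CPM with A-MYB and 61.0 and 63.1 CPM with both, with the A-MYB pair highest, and changed by 0.25 (SE 0.074, edgeR adjusted p = 0.0117). Fars2 changed by -0.29 (SE 0.11, edgeR adjusted p = 0.048) and Aars2, the mitochondrial alanyl enzyme, by -0.24 (SE 0.074, edgeR adjusted p = 0.0129). Aars2 was at 82.1 and 84.5 CPM in the control libraries, 73.2 and 75.3 CPM with Dox, 67.7 and 73.3 CPM with A-MYB and 66.6 and 73.4 CPM with both, below control in all treated libraries. These 5 calls were fragile. Leaving out control replicate 2 or A-MYB replicate 1 left 0 that rose and 0 that fell. Leaving out A-MYB replicate 2 left 1 that rose, and leaving out control replicate 1 or Dox replicate 1 left 1 that fell. With total-count scaling Fars2 (0.07) and Vars2 (0.0655) did not pass, and with DESeq2 Fars2 (0.056) did not.

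In cells given Dox, A-MYB was followed by a decrease of 15 cytosolic genes and a rise of Farsa, with 4 not passed. Of all tested genes 28.4% fell and 26.8% rose; in the top quintile 57.9% fell and 12.3% rose, with a median of -0.22 beside the cytosolic median of -0.20. Total-count scaling, which moved the median of all genes by 0.19, gave 4 that fell and 4 that rose and turned the signs of 4 genes called with TMM scaling (Dars, Farsb, Mars and Nars), of which none passed then. Qars, the glutaminyl enzyme, was at 269 and 276 CPM in the control libraries, 256 and 255 CPM with Dox, 251 and 259 CPM with A-MYB and 183 and 191 CPM with both: the first 3 groups were close and the doubly treated libraries lowest. It changed by -0.45 (SE 0.056, edgeR adjusted p = 2.33e-07). Vars changed by -0.43 (SE 0.059, edgeR adjusted p = 9.05e-07) and Farsa by 0.30 (SE 0.057, edgeR adjusted p = 8.62e-05). For genes that fell after A-MYB in both settings no share of all tested genes is given either. Aars, Gars, Lars, Mars, Nars, Vars, Wars and Yars fell after A-MYB with and without Dox, 8 of the 15 and 8 of the 10. Both contrasts share no library. Nars lost its call in the former without Dox replicate 1 or 2 or Dox + A-MYB replicate 1 (adjusted p from 0.06 to 0.302) and with DESeq2 (0.0684). Mars lost it without the same libraries (0.07 to 0.0944), and Wars without Dox replicate 1 or Dox + A-MYB replicate 1 (0.0779 and 0.0566). With total-count scaling 1 of the 8, Vars, kept both calls, and the other 7 did not pass with Dox (adjusted p from 0.0504 to 0.942).

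Among the mitochondrial genes 5 rose in this contrast (Cars2, Nars2, Sars2, Tars2 and Vars2), 4 fell (Ears2, Iars2, Mars2 and Pars2) and 7 did not pass, with a median of 0.17. Without Dox replicate 1, 3 rose and 2 fell; without Dox replicate 2, 3 rose; without Dox + A-MYB replicate 1, 2 fell. With total-count scaling 9 rose and 1 fell. Over all tested genes 26.8% rose and 28.4% fell with TMM scaling. Tars2 changed by 0.36 (SE 0.065, edgeR adjusted p = 5.42e-05) and Iars2 by -0.35 (SE 0.06, edgeR adjusted p = 2.03e-05). Nars2 changed by 0.31 (SE 0.11, edgeR adjusted p = 0.0158), a call lost without Dox replicate 1 (0.275) or Dox + A-MYB replicate 2 (0.0554). Pars2, the mitochondrial prolyl enzyme, was at 20.6 and 20.3 CPM in the control libraries, 24.7 and 26.1 CPM with Dox, 19.9 and 20.8 CPM with A-MYB and 19.6 and 19.1 CPM with both. Its Dox libraries were highest and the other groups close together, and it changed by -0.39 (SE 0.10, edgeR adjusted p = 0.00141), which did not pass with total-count scaling (-0.20, 0.0819). Over all 4 contrasts Hars2, Lars2 and Wars2 never passed. The plot of log2 changes shows both classes against the background of all genes.

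**Figure D3:**
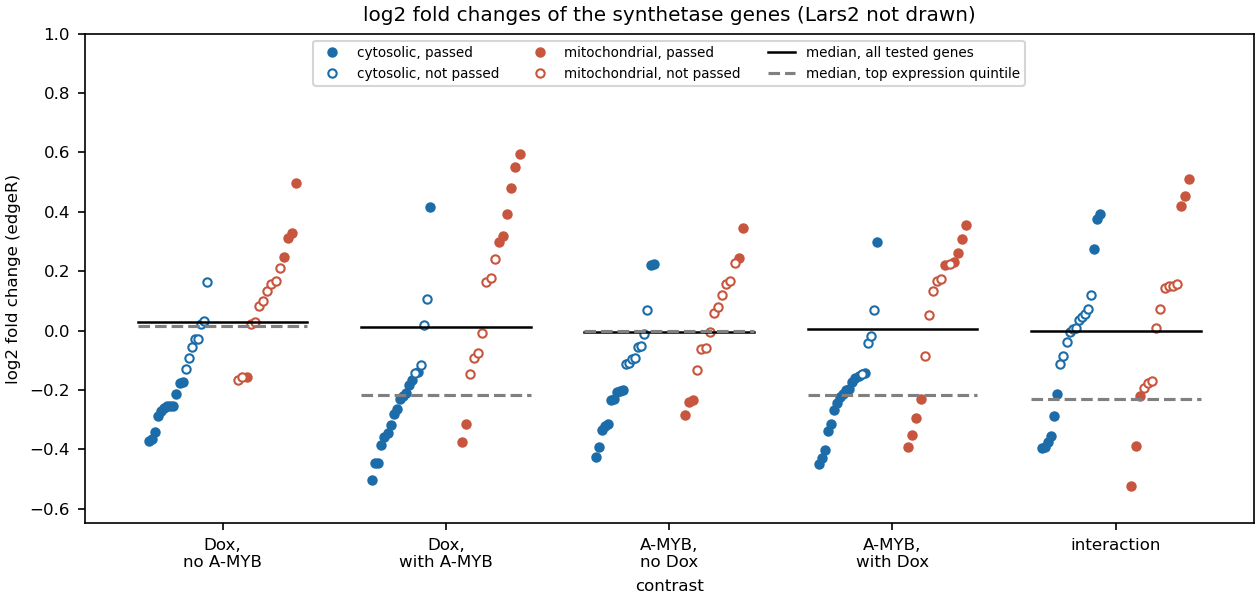
Log2 fold change (edgeR) of each gene other than Lars2 in the 4 treatment contrasts and their interaction; blue is cytosolic and red mitochondrial, filled points passed an adjusted p under 0.05. Black lines are the medians of all 14664 tested genes and dashed grey lines those of the top expression quintile, which lie at -0.22 in both contrasts with the doubly treated group; most cytosolic points are below 0 in the 4 contrasts.

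Setting each cytosolic enzyme against the mitochondrial one for the same amino acid removes any scaling of the library, though not a change that goes with abundance. There are 17 such pairs; Eprs, which loads both glutamate and proline, is paired with Ears2 and with Pars2, and Fars2 with Farsa and with Farsb. The mean log2 ratio was lower than in control for 14 pairs with Dox, 12 with A-MYB and 15 with both, and the median difference was -0.28, -0.24 and -0.44. Beside the values with both treatments stands a trend over all genes. After Dox with A-MYB the median change was -0.22 in the top expression quintile, which holds all cytosolic and 3 mitochondrial members. In the quintiles of the other 6, 6 and 1 mitochondrial members it was -0.090, -0.014 and 0.20. That contrast is against A-MYB alone, whereas the pair differences are against control. After Dox alone the medians of the same quintiles, from the top, were 0.016, 0.051, 0.033 and -0.015. The part of this trend in the ratios was not tested. The ratio of Nars to Nars2 was 4.58 and 4.67 on the log2 scale in control, 4.07 and 3.77 with Dox, 4.18 and 4.35 with A-MYB and 3.40 and 3.53 with both. Its difference from control with both treatments, -1.16, was the largest of the 17. For Tars and Tars2 the log2 ratio was 1.78 and 1.88 in control, 1.51 and 1.45 with Dox, 1.84 and 1.83 with A-MYB and 0.780 and 0.783 with both, a difference of -1.04 for the last group, and A-MYB alone overlapped control. Sars against Sars2 differed by -0.80 and Vars against Vars2 by -0.76 with both treatments. Iars against Iars2 went the other way in all 3 treated groups, by 0.10, 0.12 and 0.050, with Iars2 further below control than Iars in each. Farsb against Fars2 was 0.51 above control with A-MYB alone and -0.31 from it with both. Lars against Lars2 carries the spread of Lars2, with 2 Dox libraries at -1.12 and -2.55.

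**Figure D4:**
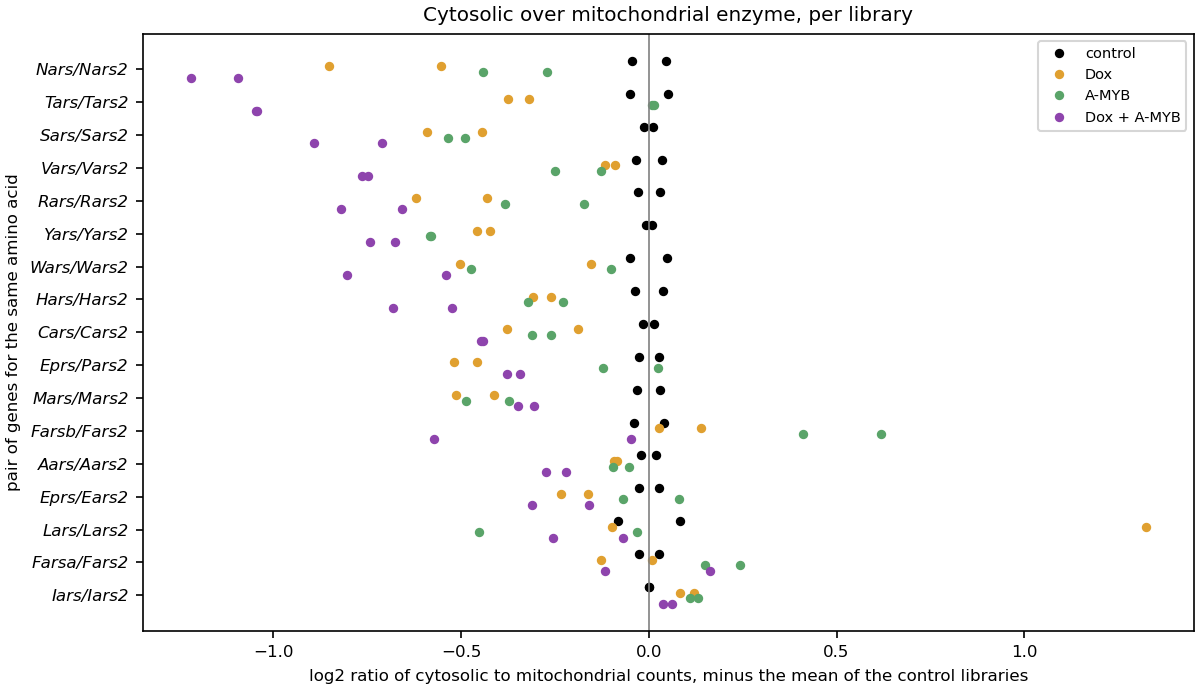
Log2 ratio of cytosolic to mitochondrial counts for 17 pairs of genes, minus the mean ratio of the control libraries. Each point is a library, coloured by group; the Dox + A-MYB points of Nars/Nars2 and Tars/Tars2 lie furthest left, with mean differences of -1.16 and -1.04, and the Lars/Lars2 pair has 1 Dox library far to the right.

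Whether the Dox effect differed between cells with and without A-MYB was tested by the interaction. In the cytosolic class 3 genes had a more positive Dox effect with A-MYB (Cars, Farsa and Sars) and 6 a more negative one (Dars, Eprs, Farsb, Iars, Qars and Tars). Of all tested genes 16.4% were more positive and 24.5% more negative, and in the top quintile 8.83% and 51.2%. Both subunits of cytosolic phenylalanyl-tRNA synthetase, which work as a complex of equal numbers of both chains, went in opposite directions. Farsa had an interaction of 0.39 (SE 0.081, edgeR adjusted p = 0.000383), whereas Farsb had -0.40 (SE 0.091, edgeR adjusted p = 0.00108), with Dox effects of 0.16 without and -0.23 with A-MYB. Iars had an interaction of -0.39 (SE 0.08, edgeR adjusted p = 0.000339), Dars of -0.38 (SE 0.081, edgeR adjusted p = 0.000595) and Qars of -0.35 (SE 0.079, edgeR adjusted p = 0.000893). Eprs missed the threshold without any 1 of 6 libraries, all but A-MYB replicate 2 and Dox + A-MYB replicate 1 (adjusted p from 0.0783 to 0.202), Cars without Dox replicate 1 (0.136) and Tars without Dox replicate 2 (0.054). With total-count scaling Eprs, Qars and Tars did not pass (0.0605 to 0.669).

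In the mitochondrial class Fars2, Tars2 and Vars2 had a more positive Dox effect with A-MYB and Iars2, Mars2 and Pars2 a more negative one. Over all tested genes 16.4% were more positive and 24.5% more negative. Tars2 had an interaction of 0.42 (SE 0.093, edgeR adjusted p = 0.000843) and Mars2 of -0.53 (SE 0.14, edgeR adjusted p = 0.00371). Vars2, the mitochondrial valyl enzyme, was at 46.0 and 45.2 CPM in the control libraries, 41.0 and 40.8 CPM with Dox, 35.5 and 42.0 CPM with A-MYB and 49.2 and 46.2 CPM with both. Both single treatments were below control, with A-MYB replicate 1 lowest, and its interaction was 0.45 (SE 0.12, edgeR adjusted p = 0.00428). The interaction of Fars2 was 0.51 (SE 0.15, edgeR adjusted p = 0.00982) and did not pass without Dox + A-MYB replicate 2 (0.35, adjusted p = 0.0661). Of the 3 negative calls 1 was left without any 1 of 6 libraries (either control, Dox replicate 2, either A-MYB, or Dox + A-MYB replicate 2), since Iars2 and Pars2 missed the threshold there. Dars, Farsb and Vars2 passed in opposite directions after A-MYB without and with Dox. For Dars the changes were 0.22 and -0.15, for Farsb 0.22 and -0.17, and for Vars2 -0.23 and 0.22. With total-count scaling the changes with Dox were 0.036 for Dars and 0.019 for Farsb, so their directions were no longer opposite. Vars2 did not pass without Dox under that scaling (edgeR adjusted p = 0.0655). Each of these genes lost at least 1 of both calls in 6 of the 8 fits without 1 library and kept both in the other 2. With Dox, Dars missed the threshold without either Dox library or Dox + A-MYB replicate 2 (0.0635 to 0.143), Farsb without the same libraries (0.0848 to 0.291), and Vars2 without either Dox library or Dox + A-MYB replicate 1 (0.121 to 0.15). Without Dox, Vars2 missed it without either control library, Dox replicate 1 or A-MYB replicate 1 (0.0573 to 0.32).

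Synthetases fall into 2 structural classes with unrelated catalytic folds. Class I and class II members gave these counts in the cytosolic set: of 10 genes each, 7 and 5 fell after Dox alone, 8 and 7 after Dox with A-MYB, 6 and 4 after A-MYB alone and 8 and 7 after A-MYB with Dox. In the mitochondrial set 3 of 7 class II genes and 1 of 9 class I genes rose after Dox alone. After Dox with A-MYB 4 of 7 and 2 of 9 rose, after A-MYB alone 0 of 7 and 2 of 9. After A-MYB with Dox it was 3 of 7 and 2 of 9. In the same order of contrasts 0 and 1, 0 and 2, 2 and 1, and 1 and 3 fell. Of all tested genes 17.9%, 28.5%, 19.5% and 26.8% rose in these contrasts. No difference between classes was tested. The 8 cytosolic enzymes of the multisynthetase complex (Dars, Eprs, Iars, Kars, Lars, Mars, Qars and Rars) had 3 that fell after Dox alone and 2 after A-MYB alone (1, Dars, rose), but 7 in both contrasts with the doubly treated group. Of the 12 enzymes outside the complex 9 fell after Dox alone and 8 in each of the other contrasts. The median log2 change of the complex was -0.073 after Dox alone and -0.076 after A-MYB alone, beside -0.25 and -0.22 outside it. With the doubly treated group it was -0.31 (Dox) and -0.21 (A-MYB), beside -0.20 and -0.18. In the top quintile, where all 20 lie, 23% and 26.7% of genes fell after Dox and A-MYB alone and 58.2% and 57.9% in the contrasts with the doubly treated group. These counts depend on the scaling: by total counts 2, 2, 4 and 2 enzymes of the complex fell after Dox alone, A-MYB alone, Dox with A-MYB and, last, A-MYB given with Dox, beside 8, 8, 2 and 2 outside it. Of the 3 scaffold genes, Aimp1 and Aimp2 passed in no contrast. Eef1e1 fell after Dox with A-MYB (-0.51, edgeR adjusted p = 1.65e-06) and after A-MYB with Dox (-0.37, adjusted p = 0.000146).

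A composite element bound by ATF4 and C/EBP factors is known from the promoters of stress-response genes. The letters TGATGCAA, or TTGCATCA on the other strand, were searched in the 300 bases around each annotated start (250 before and 50 after, RefSeq, GRCm38.p6), a motif chosen with the expression results known. Of the 13 cytosolic genes with a promoter entry 4 held it (Aars, Iars, Tars and Yars), of the 14 mitochondrial genes 0, and of all 27025 genes 1.03%. The 4 stretches are shown because they are the members' only matches; capitals mark the element, and each is written 5′ to 3′ on the strand of the gene.
Aars (chr8:111033690-111033777, plus strand): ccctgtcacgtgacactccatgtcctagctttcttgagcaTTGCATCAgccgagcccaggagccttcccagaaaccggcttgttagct
Tars (chr15:11399659-11399713, minus strand): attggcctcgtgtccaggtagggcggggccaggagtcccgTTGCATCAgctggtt
Iars (chr13:49682127-49682154, plus strand): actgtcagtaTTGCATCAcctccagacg
Yars (chr4:129189896-129189923, plus strand): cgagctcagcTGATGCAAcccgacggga
In Aars the element begins 112 bases before the start and in Tars 15 bases before it, while in Iars and Yars it begins 7 and 3 bases after the start. Iars, which holds it, was also the member of the ATF4 list that did not pass after Dox alone. The MYB core AACGG, searched on both strands like each motif here, was in 2 of 13 cytosolic and 5 of 14 mitochondrial promoters and in 19.6% of all. CACGTG, which reads the same on both strands, was in 4 of 13 and 1 of 14, and in 8.09% of all. CCGGAAG, the core that ETS factors bind, was in 5 of 13 and 4 of 14, and in 9.93% of all. The NRF1 motif was in 3 of 13 and 2 of 14, and in 5.19% of all. The searches for AACGG and the others allowed overlap with each other. A match is a run of letters and not a shown site of binding.

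The 12 synthetase genes known as ATF4 targets were compared with the 8 other cytosolic genes. After Dox alone 11 of the 12 fell (Iars did not pass) and 1 of the 8 (Vars), with medians of -0.25 and -0.030. After A-MYB alone it was 9 of 12 and 1 of 8, with medians of -0.22 and -0.096. With the doubly treated group the sets were closer: 9 of 12 and 6 of 8 fell after Dox, and 10 of 12 and 5 of 8 after A-MYB. All 20 lie in the top quintile, where 23% of genes fell after Dox alone and 26.7% after A-MYB alone, against 58.2% and 57.9% with the doubly treated group. With total-count scaling 9 of 12 and 1 of 8 fell after either single treatment, but 4 of 12 and 2 of 8 after Dox with A-MYB and 2 of 12 and 2 of 8 after A-MYB with Dox. Of 19 tested genes of the integrated stress response that are no synthetases, 15 fell and 0 rose after Dox alone, 14 fell and 0 rose after A-MYB alone, 12 fell and 3 rose after Dox with A-MYB, and 11 fell and 4 rose after A-MYB with Dox. Their medians were -0.46, -0.37, -0.48 and -0.34. Over all tested genes 14.3%, 15.2%, 30.4% and 28.4% fell in the same contrasts, and 10 of the 19 lie in the top quintile. By total counts 15, 13, 10 and 8 of them fell and 0, 0, 5 and 5 rose. Among them after Dox alone Ddit4, an inhibitor of the growth kinase complex mTORC1, changed by -0.92, Nupr1, a stress-responsive regulator, by -1.68, and Psat1 and Phgdh, enzymes of serine synthesis, by -0.65 and -0.81 (edgeR adjusted p from 9.51e-11 to 1.18e-08). Atf4 itself changed by -0.10 after Dox alone (not passed) and rose by 0.60 after Dox with A-MYB, an interaction of 0.70 (adjusted p = 3.47e-07). Ddit3, the factor CHOP, changed by -0.46 and 0.92, an interaction of 1.38 (adjusted p = 1.81e-06). Of the 12 synthetase genes 0 rose in that contrast, or 2 with total-count scaling. Mars overlaps Ddit3 on the genome, and the sources used here do not say how reads shared by overlapping genes were counted.

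**Figure D5:**
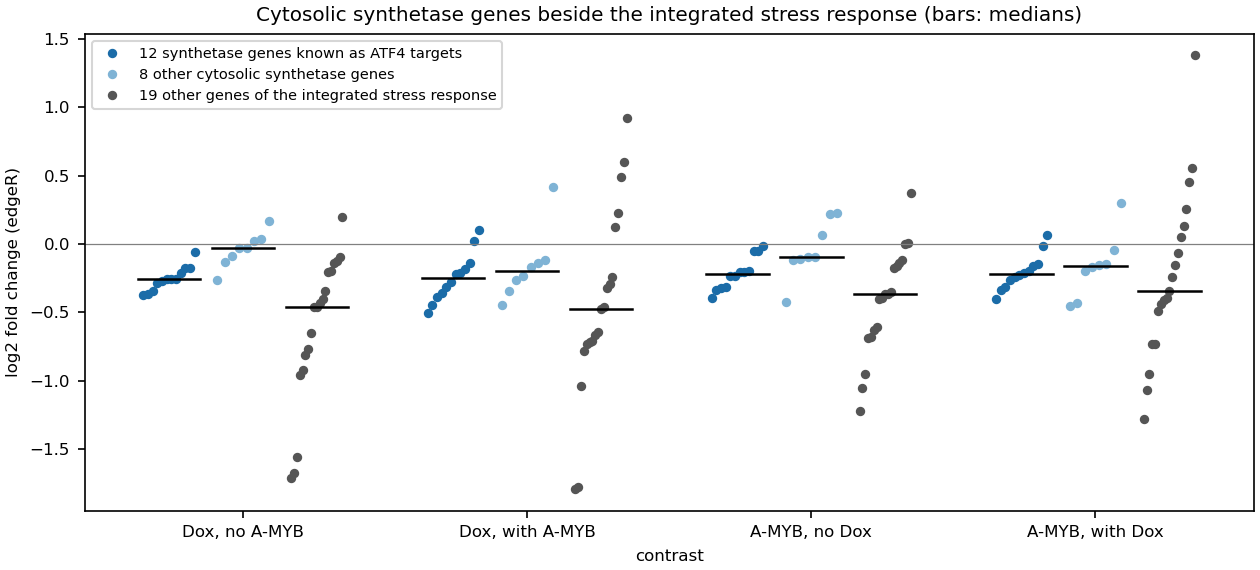
Log2 fold change (edgeR) of 12 cytosolic synthetase genes known as ATF4 targets, of the 8 other cytosolic genes and of 19 other genes of the integrated stress response, in 4 contrasts. Points are genes and black bars medians. After Dox alone the medians are -0.25, -0.030 and -0.46. Stress-response genes above 0 appear in all 4 contrasts. After Dox alone and A-MYB alone the highest are at 0.20 and 0.37, and 0 rose past the test there.

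The partners of the synthetases in translation were read from the same fit. All 6 cytosolic elongation factor genes fell in each of the 4 contrasts, and 5 of them in each with total-count scaling. All 6 lie in the top quintile, where between 23% (Dox alone) and 58.2% (Dox with A-MYB) of genes fell. Eef1a1, which delivers loaded tRNA to the ribosome, changed by -0.35 after Dox alone and -0.66 after Dox with A-MYB, and Eef2, which moves the ribosome along the mRNA, by -0.17 and -0.54. Of 10 mitochondrial translation factor genes, 1 rose and 1 fell after Dox alone, 3 and 2 after Dox with A-MYB, 1 and 2 after A-MYB alone and 4 and 1 after A-MYB with Dox; over all tested genes the shares that rose were 17.9%, 28.5%, 19.5% and 26.8%. Total-count scaling raised the numbers that rose to 7 after Dox with A-MYB and 6 after A-MYB with Dox, and left 0 that fell after Dox alone. Tufm, the mitochondrial counterpart of Eef1a1, fell in all 4 with TMM scaling, with log2 changes from -0.46 to -0.17. Of 8 genes for the modification or formation of loaded mitochondrial tRNAs, 3 rose and 0 fell after Dox alone, 1 rose and 1 fell after A-MYB alone, and 5 rose and 1 fell in each contrast with the doubly treated group; none of the 8 lies in the top quintile. After Dox with A-MYB Trmu, which thiolates mitochondrial tRNAs, rose by 1.5, Trit1, which adds an isopentenyl group to tRNAs, by 1.02, and Mto1, which modifies the wobble base, by 0.76 (edgeR adjusted p from 9.37e-12 to 1.32e-08). Gatb, a subunit of the enzyme that turns glutamate into glutamine on mitochondrial tRNA and is named Pet112 in the files, rose by 0.57. Mtfmt, which formylates the initiator methionyl-tRNA, fell by 0.34. By total counts 3 of the 8 rose after Dox alone, 1 after A-MYB alone, 6 after Dox with A-MYB and 5 after A-MYB with Dox. With that scaling 0 of the 8 fell in each of these contrasts.

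The gene span of 8 members overlaps that of another protein-coding gene: Aars with Ddx19b, Farsb with Sgpp2, Mars with Ddit3, Wars with Wdr25, Iars2 with Rab3gap2, Rars2 with Orc3, and Hars and Hars2 with each other. The kit marks the strand, but the sources used here do not say whether the counting used it, so their values are less certain. Another readout, histone H3 acetylated at lysine 27 (H3K27ac) in mouse pachytene spermatocytes, was available as peak lists for 2 wild-type and 2 A-myb mutant libraries (C57BL/6J, 8 to 12 weeks, each from 1 male; the mutant is labelled A-mybrepro9/repro9). Within 1000 bases of the start of the 27 members with a promoter entry, 0 had a peak in any of the 4 libraries, against 2.72% and 1.49% of 27025 genes in the wild-type and 0.973% and 0.962% in the mutant libraries. A count of 0 among 27 is near those shares. So few starts of any gene held a peak that these lists say little about the mark at starts; the sources used here do not give which library was treatment and which control in the peak calls, and this was not tested.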

How the data were processed

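The data are RNA-seq of J1 ES cells (8 libraries) and H3K27ac ChIP-seq of pachytene spermatocytes (4 libraries); 4 further input libraries were not used here. The authors deposited raw counts of reads per gene symbol for the ES cells, 1 file per library. The 5 closing lines for reads given to no gene held 17.2% to 19.5% of the reads of a library and were kept out of the library sizes. Tools in the submitters' processing notes are HISAT2 2.1.0, Bowtie2 2.3.3.1, HTSeq (no version), bcl2fastq 2.20.0 and MACS 1.4.2, with mm10 as the build and no roles or settings. The deposited peak lists hold positions, a score, tag counts and fold enrichment (a ratio over background), all the authors' own; the score was not used.

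Of 23420 genes, 14664 passed edgeR's filterByExpr and were fitted together in 1 model with a coefficient per group (edgeR 4.0.16, R 4.3.3, TMM scaling, robust glmQLFit, 4 residual degrees of freedom). Contrasts were tested two-sided with glmQLFTest, with Benjamini-Hochberg adjustment over all tested genes and a threshold of 0.05. The standard error of a log2 change is its size divided by the root of the F statistic. Levels are CPM on TMM-scaled library sizes, and they are compared within a gene only, since no transcript lengths were used. The script was tested on simulated data, in which few genes changed, as many up as down, and in the Dox group alone. That simulation does not cover the shift of abundant genes in the Dox + A-MYB group. Both Dox contrasts share no library with each other, nor do both A-MYB contrasts, but a Dox and an A-MYB contrast do share some.

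The members and all gene lists, among them the ATF4 targets and the markers, were chosen with earlier results of these data known. Values per library are given, by rule, for up to 2 members per class and contrast that rose most and 2 that fell most among those that passed, for the 4 with the smallest interaction p, and for those that passed in opposite directions. Lars2 was added after its values were seen. Replicate numbers were not shown to pair the libraries. Mars was matched to RefSeq as Mars1 and Gatb to the files as Pet112; promoters came from RefSeq (GRCm38.p6, the build called mm10 elsewhere) for 27 of 36 members. Alternatives were DESeq2 1.42.0 size factors and its Wald test, total counts, no filter, the replicate block, fewer libraries and each library left out. Per-sample columns left unused: 0.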

Additional observations from a re-analysis of the deposited data

Results flagged for a closer look

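The Dox effect differed between cells with and without A-MYB for 15 of the 36 members by the interaction test (edgeR, adjusted p under 0.05). Over all tested genes 40.9% passed the same test, so the count for the members is near the share of all genes. Each value below is a difference in log2 units, obtained by subtracting the Dox effect in cells without A-MYB from that in cells with it.

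Among the cytosolic genes the difference was 0.39 for Farsa (Dox effects of 0.42 with and 0.023 without A-MYB, adjusted p = 0.000383), 0.38 for Sars (0.11 and -0.27, adjusted p = 0.00121) and 0.27 for Cars (0.019 and -0.26, adjusted p = 0.0139). It was -0.40 for Farsb (-0.23 and 0.16, adjusted p = 0.00108), -0.39 for Iars (-0.45 and -0.055, adjusted p = 0.000339) and -0.38 for Dars (-0.34 and 0.033, adjusted p = 0.000595). It was -0.35 for Qars (-0.45 and -0.091, adjusted p = 0.000893), -0.29 for Tars (-0.50 and -0.21, adjusted p = 0.00389) and -0.21 for Eprs (-0.39 and -0.17, adjusted p = 0.0318).

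Among the mitochondrial genes it was 0.51 for Fars2 (0.59 and 0.084, adjusted p = 0.00982), 0.45 for Vars2 (0.30 and -0.16, adjusted p = 0.00428) and 0.42 for Tars2 (0.55 and 0.13, adjusted p = 0.000843). It was -0.53 for Mars2 (-0.32 and 0.21, adjusted p = 0.00371), -0.39 for Pars2 (-0.076 and 0.31, adjusted p = 0.0289) and -0.22 for Iars2 (-0.38 and -0.16, adjusted p = 0.0394). The summed ES cell markers were lower in both Dox + A-MYB libraries (4635 and 5109 CPM) than in the other 6, and their part in these differences was not tested.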

How the results depend on the processing

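The difference between the cytosolic and mitochondrial median log2 change kept its sign in all 4 treatment contrasts under the alternatives that were run. It could hardly change under DESeq2 size factors or total counts, which shift every gene of a contrast alike and so do not test it. Over the fits without 1 library it ranged from -0.33 to -0.25 for Dox alone, -0.41 to -0.35 for Dox with A-MYB, -0.21 to -0.18 for A-MYB alone and -0.43 to -0.29 for A-MYB with Dox; in the interaction it ranged from -0.13 to -0.028, and it was -0.073 without Lars2, an alternative added after the data were seen. With 2 libraries a group, precision is limited by the spread between them. Lars2 aside, standard errors tended to be larger for genes with fewer reads. For Dox alone they were 0.054 for Kars and 0.16 for Wars2. Numbers of calls in the cytosolic and the less abundant mitochondrial class are therefore not equally sensitive.

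Total-count scaling moved most counts. For Dox alone it gave 1 cytosolic gene that rose and 0 mitochondrial that fell. For Dox with A-MYB it gave 3 cytosolic that rose and 6 that fell, 10 mitochondrial that rose and 1 that fell, and 2606 of all genes that fell, against 4463 with TMM. For A-MYB alone it gave 1 mitochondrial that fell. For A-MYB with Dox it gave 4 cytosolic that rose and 4 that fell, 9 mitochondrial that rose and 1 that fell, and 2367 of all genes that fell, against 4161 with TMM. For the interaction it gave 7 and 3 cytosolic, 6 and 1 mitochondrial, and 3746 and 2291 of all genes, positive and negative. Under it 10 of the 36 members turned in sign for Dox with A-MYB, 4 of them called with TMM, and 8 for A-MYB with Dox, again 4 of them called. For Dox with A-MYB these were Aars, Hars, Mars and Rars (called) and Kars, Wars, Aars2 (0.20), Ears2, Pars2 (0.13) and Yars2 (0.12); for A-MYB with Dox they were Dars (0.036), Farsb (0.019), Mars and Nars (0.047) (called) and Hars, Rars, Sars (0.17) and Aars2 (0.11); the scaling shifts every gene of a contrast alike.

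For Dox alone, DESeq2 size factors gave 2 mitochondrial genes that fell; no filter on low counts gave 1 cytosolic that rose and 0 mitochondrial that fell; the 4 compared libraries alone, and the fit without the Dox + A-MYB group (added after the data were seen), each gave 1 and 2. DESeq2's Wald test left 1 mitochondrial gene with a negative interaction. The causes were not tested.

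Same-numbered libraries had deviations that correlated at -0.027 to 0.084, so the numbers were not shown to mark shared cultures. The replicate block made 1 cytosolic gene rise after Dox alone, 16 instead of 15 fall after Dox with A-MYB, and 6 instead of 5 mitochondrial genes rise after A-MYB with Dox; the other member counts were as without it.

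Without 1 library, counts for Dox alone ranged from 0 to 1 (cytosolic rose), 8 to 13 (cytosolic fell), 1 to 4 (mitochondrial rose) and 0 to 2 (mitochondrial fell), and over all genes from 1253 to 2623 that rose and 1221 to 2598 that fell. For Dox with A-MYB they ranged from 1 to 2 (cytosolic rose), 12 to 16 (cytosolic fell), 5 to 6 (mitochondrial rose) and 1 to 2 (mitochondrial fell). For A-MYB alone they ranged from 0 to 2, 8 to 11, 0 to 2 and 0 to 4 in that order, and over all genes from 1718 to 2834 and 1482 to 2842. For A-MYB with Dox they ranged from 1 to 1, 10 to 16, 3 to 5 and 2 to 4, and for the interaction from 2 to 3, 4 to 6, 2 to 4 and 1 to 3. Both H3K27ac alternatives, the start base itself and peaks of at least 10-fold, were stricter than the rule used, which already gave 0, so their 0 adds nothing.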
